A study of Mus musculus with 16 samples.

Results

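In mice that breathed filtered air only, the 4 arrays of GFP+ cells were compared with the 4 arrays of GFP- cells sorted from the same pools of olfactory mucosa. The arrays were chosen by their titles, 8 of the 16 in the series, and all 22206 probe sets that are no controls were tested. The mice were S100a5-tauGFP reporter animals, named for the gene S100a5 and a green fluorescent tau protein. The sources used here do not give the strain, the copy number or how the reporter is joined to the gene. The whole series used 24 mice of both sexes, 7 to 12 weeks old, that lived for 40 h in chambers under a clean air flow of 3.1 L per min. Starting at 26 h the vehicle mice received a 10 s pulse of filtered air every 20 min, and the odor mice, used here only for side-by-side values, received 2-hexanone on the same schedule. Both fractions and both treatments carry the reporter. Each pool joined the mucosa of 3 mice, was sorted by FACS into both fractions and gave 50 to 100 ng of RNA per array, so a pool, not a cell or a mouse, is the replicate. The comparison asked what separates cells with the reporter from cells without it when no odorant is added, with channels, metabolism, adhesion and cell types examined beside the receptors.

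An olfactory sensory neuron expresses 1 odorant receptor gene. When the receptor is active, a G protein and the adenylyl cyclase Adcy3 raise cyclic AMP, cyclic nucleotide-gated channels admit calcium, and the calcium-activated chloride channel Ano2 adds current. Receptors differ in how often they signal without an odorant, so neurons of 1 mucosa differ in their resting activity. S100a5 encodes a calcium-binding protein whose transcript follows activity in these neurons, and Omp encodes the marker protein of mature olfactory neurons. The mucosa also holds immature neurons, basal progenitors, sustentacular cells (the supporting cells that carry detoxifying enzymes), microvillous cells, glands, vessels and blood cells.

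The sequence before the S100a5 start is shown because this gene names the reporter by which the cells were sorted. The letters come from RefSeq (GRCm38.p6) and are the 250 bases before the start, at chr3:90608272-90608521 on the plus strand.
S100a5: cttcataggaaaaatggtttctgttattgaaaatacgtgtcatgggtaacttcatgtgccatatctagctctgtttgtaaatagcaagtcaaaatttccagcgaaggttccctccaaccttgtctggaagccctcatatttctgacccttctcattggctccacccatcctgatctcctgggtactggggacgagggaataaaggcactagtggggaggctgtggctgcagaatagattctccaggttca
A cyclic AMP response element (CRE, TGACGTCA), its 5-base core TGACG and an AP-1 motif (TGANTCA, with N for any base) were searched on both strands, and every CRE also holds the core. None of the 3 occurs in the S100a5 letters. Of all 32851 windows of 250 bases in the table, 1.55% held the CRE, 17.8% the core and 6.75% the AP-1 motif. Of the 15 genes outside the receptors that were highest in GFP+ cells (given further on), 12 had an entry, and 2 of these, Ptprn and Pcdh10, held the core, in 2 copies each. These stretches are shown with the core in capitals on either strand. The Ptprn stretch is the minus strand of chr1:75264254-75264355, with cores that begin 117 and 80 bases before the start in 1 of its 2 listed starts. The Pcdh10 stretch is the plus strand of chr3:45378252-45378329, with cores that begin 116 and 103 bases before the start.
Ptprn: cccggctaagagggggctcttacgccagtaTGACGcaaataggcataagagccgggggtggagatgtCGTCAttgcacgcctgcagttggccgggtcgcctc
Pcdh10: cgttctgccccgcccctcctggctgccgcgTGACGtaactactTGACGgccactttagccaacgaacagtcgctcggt
A match is a run of letters and not a measured binding site.

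The deposited values are on a log2 scale that reaches 19.81, above the 16 bits of a scanner. They were therefore transformed in a way the sources used here do not state, and every difference and fold below is on that scale. The highest of 23 antigenomic background bins, 6.16 to 6.76 on the vehicle arrays, served as each array's background floor, and 42.6% to 49.1% of probe sets lay above it. The median of an array lay between 5.70 and 5.74 for GFP+ samples and between 6.06 and 6.12 for GFP- samples. Arrays of the same fraction correlated at 0.979 to 0.990 over probe sets, and arrays of different fractions at 0.923 to 0.963. The GFP- array of pool 4 stood apart: its mean level over 15 neutrophil genes was 13.73, against 10.92 to 12.71 in the other 3 GFP- arrays, and over 6 erythroid genes 9.61 against 7.14 to 8.0. Where leaving out 1 pool moved a count of list members by over 1.5 times, the count without that pool is given, apart from counts of 0 or 1. With 4 arrays per group the precision is limited, and in bulk samples fewer cells of a type and less RNA per cell cannot be told apart.

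S100a5 separated the fractions in every pool, and Omp did not. In pools 1 to 4, S100a5 stood at 17.02, 16.27, 16.25 and 16.11 in GFP+ cells and at 15.60, 15.06, 14.94 and 14.54 in GFP- cells. The lowest GFP+ array exceeded the highest GFP- array, and pool 1 was the highest in both fractions. The difference was 1.38 ± 0.25 on the log2 scale (SE, n = 4 pools per group), a 2.60-fold higher level in GFP+ cells by limma (adjusted p = 0.000514). Omp stood at 19.45, 19.44, 19.19 and 19.42 in GFP+ cells and at 19.48, 19.39, 19.34 and 19.27 in GFP- cells, and the groups overlapped (difference 0.01 ± 0.14 SE, adjusted p = 0.988). These values are near each array's maximum (19.51 to 19.81), so a saturated signal could mask a difference and the overlap does not show equality. Of the 22206 probe sets 15.7% were called at an adjusted p below 0.05, with 1295 (5.83%) higher and 2189 (9.86%) lower in GFP+ cells.

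The balance between the directions depended on the scaling. On the deposited scale 37.2% of the calls were higher in GFP+ cells. With each array centred on its own median, 8986 were higher and 1750 lower (83.7% higher), and the median difference of all probe sets moved from 0.14 to 0.50. Quantile normalization gave 1972 higher and 2051 lower (49% higher). Leaving out 1 pool at a time gave 741 to 1112 higher, the lowest count without pool 4 (807 without pool 2 and 885 without pool 3), and 1746 to 2063 lower. A fit of the vehicle arrays alone gave 948 higher and 1952 lower. Of the genes given below as not passing, Cnga2, Cnga4, Slc12a2, Scn3b, Syp, Snap25, Atp5b and Ebf1 passed with centred arrays, all higher in GFP+ cells. The directions below are those of the deposited scale. A list's median is read against 0.14, and its counts against the 5.83% higher and 9.86% lower of all probe sets. Those shares include the odorant receptors. Among named genes outside odorant and trace amine receptors 4.31% were higher and 9.45% lower. The mature neuron markers, described further on, had a median of 0.42 as a list.

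**Figure D1:**
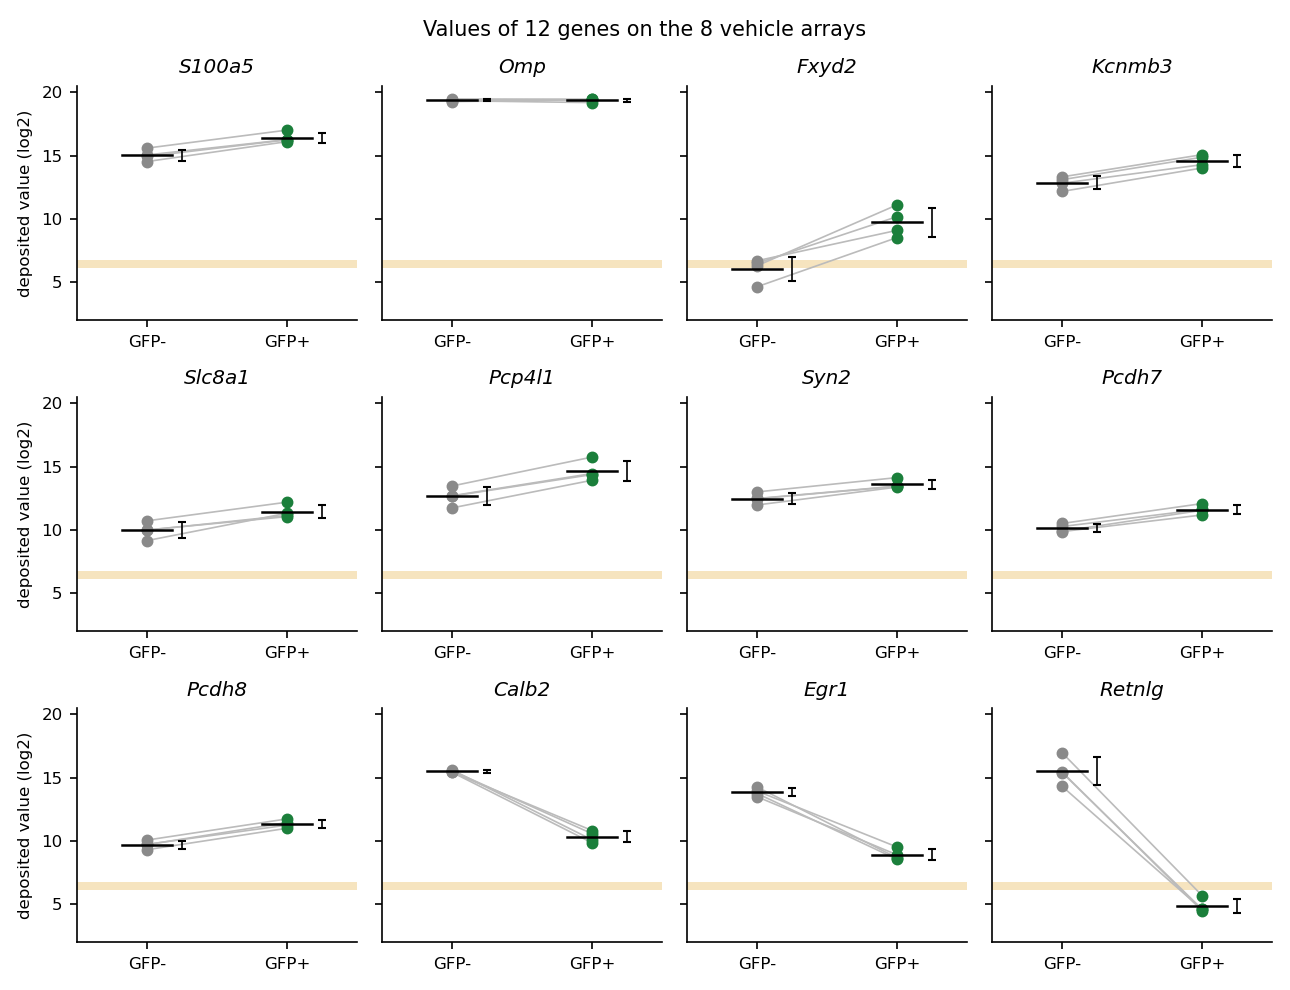
Deposited log2 values of 12 genes on the 8 vehicle arrays, GFP- (grey) and GFP+ (green), with lines joining the fractions of a pool, black bars for means and error bars for 1 SD (n = 4). The sand band spans the background floors (6.16 to 6.76). Omp overlapped, S100a5 and 7 further genes were higher in GFP+ cells in every pool, and Calb2, Egr1 and Retnlg were lower in every pool.

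Outside the odorant and trace amine receptors, the transcripts higher in GFP+ cells were many and their differences small, whereas those lower were more numerous and larger. Of 18399 named genes, 793 were higher, 510 of them with every GFP+ array above the floor, and their median difference was 0.78. That count fell to 413 without pool 2, 461 without pool 3 and 347 without pool 4. It was 491 in a fit of the vehicle arrays alone and 1284 under a random pool block. Only 152 of the 793 differed by at least 1 and 2 by at least 2 on the log2 scale. By contrast 1738 genes were lower with a median of -1.67, and 708 of them differed by at least 2 and 216 by at least 4. The lower count was 1358 to 1642 without 1 pool, 1522 with the vehicle arrays alone and 1918 under a random pool block. In the receptors the higher side was not small: of 1080 odorant receptors 389 were higher with a median of 2.13, and 239 were lower with a median of -2.97. Of 15 trace amine receptors, a second olfactory family, 6 were higher and 2 lower (1 lower without pool 2 or 4). Both groups lay under the floor on every array for 230 of the 793 and 380 of the 1738, and no fold is given for such genes.

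Fxyd2, a small regulatory subunit of the sodium-potassium pump, was the highest of all genes outside the receptors. It stood at 11.12, 9.11, 10.19 and 8.54 in GFP+ cells of pools 1 to 4 and at 6.32, 6.71, 6.52 and 4.66 in GFP- cells. No GFP- array rose above its floor, and all GFP+ arrays did. The transcript was therefore at least 9.08-fold higher in GFP+ cells (measured difference 3.69 ± 0.51 SE, adjusted p = 2.89e-05). Ptprn, a membrane protein of dense-core secretory vesicles, followed at a difference of 2.03 ± 0.29 (adjusted p = 5.15e-05). Only 1 of its 4 GFP- arrays lay above the floor, and it was 3.52-fold higher with the other 3 raised to their floor.

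Among genes measured in both fractions, the calmodulin-binding protein gene Pcp4l1 stood at 15.76, 14.46, 14.38 and 13.93 in GFP+ cells and at 13.48, 12.71, 12.68 and 11.75 in GFP- cells. The groups did not overlap, and the difference was 1.98 ± 0.34 (3.93-fold, adjusted p = 0.000356). Lrrc3b, a leucine-rich repeat membrane protein, differed by 1.99 ± 0.44 (adjusted p = 0.00367). The transcription factor gene Rfx4 stood at 9.05, 9.34, 9.21 and 9.43 in GFP+ and at 7.49, 7.57, 7.25 and 7.44 in GFP- cells, 2 tight groups 1.82 ± 0.18 apart (3.53-fold, adjusted p = 5.27e-07). Slc7a8, an exchanger of neutral amino acids, differed by 1.80 ± 0.25 (adjusted p = 2.65e-05). Caly, an endosomal adaptor of neurons (1.70 ± 0.24, with 2 of 4 GFP- arrays above the floor), and Adamdec1, a secreted metalloprotease (1.51 ± 0.23), were also among the 15 highest. So were Kcnmb3, Kcng1, Pcdh8, Pcdh10 and Syngr1, which are described with their lists. Etv5, an ETS family transcription factor, passed with all pools (1.54 ± 0.50, adjusted p = 0.0453) but with none of the 4 pools left out (adjusted p = 0.0837 to 0.127).

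Genes of membrane excitability were among those higher in GFP+ cells, while the transduction channel subunits Cnga2 and Cnga4 did not pass on the deposited scale. Of 88 genes matched by potassium channel symbols, 10 were higher and 5 lower, against 5.83% and 9.86% of all probe sets, and 62 lay under the floor in both groups. Kcnmb3, an auxiliary subunit of calcium-activated potassium channels, stood at 14.88, 14.29, 15.08 and 14.03 in GFP+ cells and at 13.11, 12.83, 13.33 and 12.18 in GFP- cells. Its groups did not overlap (difference 1.71 ± 0.29, 3.27-fold, adjusted p = 0.000314). Kcnn2, a small-conductance calcium-activated channel, was 2.06-fold higher (1.05 ± 0.19, adjusted p = 0.000517). Kcnh3, a voltage-gated channel of the ether-a-go-go family, was 1.96-fold higher (0.97 ± 0.19, adjusted p = 0.00138). Kcng1, a modifier subunit of voltage-gated channels, was higher with all pools (1.52 ± 0.42, adjusted p = 0.0166) but not without pool 1 (adjusted p = 0.0575). The potassium channel count was 6 without pool 1, 2 or 4.

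Of 11 voltage-gated sodium channel genes 3 were higher (27.3%, against 5.83% of all probe sets) and 0 lower. Only 1 of the 3 had every GFP+ array above the floor, and 6 of the 11 lay under it on all 8 arrays. The list's median was 0.63, with all 11 differences above 0. Scn4b, a beta subunit, was 2.05-fold higher (1.04 ± 0.19, adjusted p = 0.000617). Scn3b, another beta subunit, missed the threshold at 0.70 ± 0.26 (adjusted p = 0.0799). Under a random or fixed pool block Scn3b passed (adjusted p = 0.0378 and 0.0172), and the list then had 6 and 5 members higher. Of 9 cyclic nucleotide-gated and HCN channel genes 2 were higher (1 without pool 1, 2 or 4), among them the pacemaker channel gene Hcn4 (0.83 ± 0.21, adjusted p = 0.0106), which did not pass in a fit of the vehicle arrays alone (adjusted p = 0.0536). The transduction channel subunits Cnga2 and Cnga4 did not pass (0.23 ± 0.22 and 0.09 ± 0.16, adjusted p = 0.553 and 0.757), and with arrays centred on their medians both did (adjusted p = 0.0378 and 0.0264). Their levels in the 8 arrays ran from 16.33 to 17.23. Ano2 was 1.56-fold higher (0.64 ± 0.18, adjusted p = 0.0175), a call that was lost without pool 2 or pool 4 (adjusted p = 0.0823 and 0.121). It was also lost in a fit of the vehicle arrays alone (adjusted p = 0.0547).

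Exchangers of calcium, bicarbonate and chloride had 5 of 46 genes higher (10.9%, against 5.83% of all probe sets) and 2 lower. With pool 3 left out 3 were higher, and with pool 4 left out 1 was. Slc8a1, a plasma membrane sodium-calcium exchanger, stood at 12.20, 11.15, 11.06 and 11.33 in GFP+ cells and at 10.73, 9.99, 10.01 and 9.17 in GFP- cells, with no overlap (1.46 ± 0.33, 2.75-fold, adjusted p = 0.00388). Slc24a2, a potassium-dependent sodium-calcium exchanger, was 2.19-fold higher (1.13 ± 0.30, adjusted p = 0.0150), and not without pool 2 or 4 (adjusted p = 0.0591 and 0.110). The bicarbonate cotransporter gene Slc4a4 was 2.13-fold higher (1.09 ± 0.27, adjusted p = 0.00891), and not without pool 4 (adjusted p = 0.0763). Slc12a2, which loads olfactory neurons with chloride, did not pass (0.07 ± 0.16, adjusted p = 0.832). Of 22 pump and Fxyd genes 2 were higher (1 without pool 2, 3 or 4) and 4 lower. Besides Fxyd2, a second family member, Fxyd6, fell in GFP+ cells (2.46-fold lower, -1.30 ± 0.19, adjusted p = 6.51e-05), and the calcium pump gene Atp2a3 was at least 5.91-fold lower. In GFP- cells Atp2a3 was highest in pool 4 (9.52), as were the blood cell markers, and Fxyd6 lowest there (8.14). The part of blood cells was not tested.

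The other channel lists are read against the 5.83% higher and 9.86% lower of all probe sets. Voltage-gated calcium channels had 2 higher (8.0%) and 0 lower of 25. Transmitter-gated channels had 3 higher (4.41%) and 1 lower (1.47%) of 68, and 5 higher under a random pool block. TRP and polycystin channels had 3 higher (10.0%) and 2 lower (6.67%) of 30. Anoctamin and CLC channels had 2 higher (6.25%) and 1 lower (3.12%) of 32. Connexins, pannexins and aquaporins had 0 higher and 2 lower (6.67%) of 30. The higher counts of these lists changed when single pools were left out. Without pool 4 none was called among the calcium, TRP and anoctamin lists, without pool 2 none among the TRP and anoctamin lists, and without pool 1 none among the transmitter-gated channels. With another pool left out the calcium list had 1 higher (pool 1 or 3), the transmitter-gated list 1 (pool 2 or 3), the TRP list 1 (pool 3) and the anoctamin list 1 (pool 1 or 3). Of the lower calls, the TRP count was 1 without any 1 pool and the count of connexins, pannexins and aquaporins 4 without pool 4. Every GFP+ array lay above the floor for 0 of the 2 calcium channel genes and 0 of the 3 transmitter-gated channel genes called higher. The symbol patterns behind these lists also matched a few binding partners. Trpm5, the channel of tuft-like microvillous cells, was at least 3.81-fold lower in GFP+ cells, and the water channel gene Aqp1 at least 6.52-fold lower. Among 91 transmitter and hormone receptors outside olfaction, 6 were higher and 10 lower (38 and 8 with centred arrays). Without pool 4 there were 3 higher, and without pool 3 there were 6 lower. The cannabinoid receptor gene Cnr1 stood at 7.34, 7.48, 7.23 and 7.31 in GFP+ cells, just above the floor, and at 6.24, 6.34, 6.54 and 6.02 in GFP- cells, all below it, so that it was at least 1.72-fold higher (1.05 ± 0.17, adjusted p = 0.000132).

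**Figure D2:**
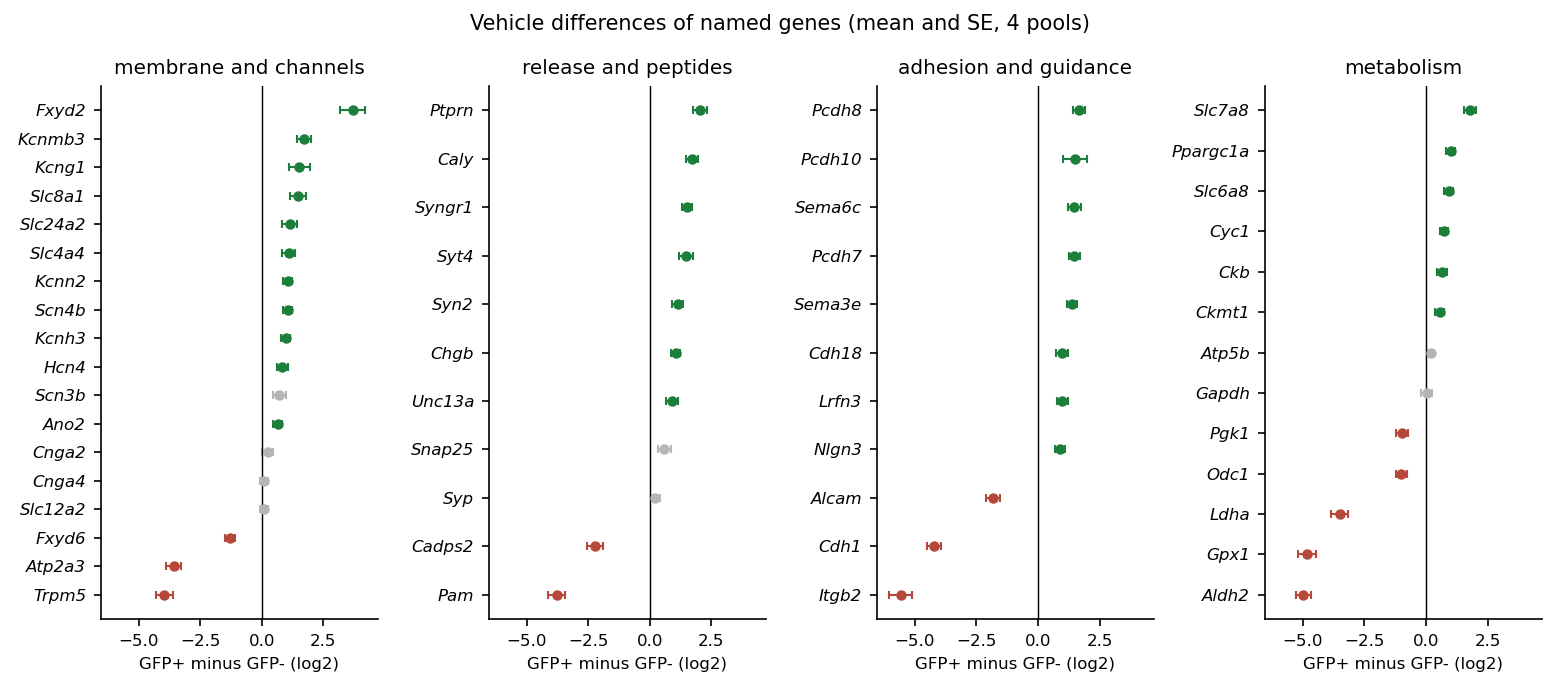
GFP+ minus GFP- differences in vehicle of named genes in 4 panels, as fitted log2 differences with SE (4 pools per group). Green points are called higher, red points lower and grey points not called. Fxyd2 stands furthest to the right at 3.69, and the differences of Cnga2, Cnga4, Gapdh and Atp5b lie close to 0.

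Cyclic AMP and calcium signalling genes had members called in each direction. Of 62 cyclases, phosphodiesterases and kinase A genes 6 were higher (2 without pool 2, 3 without pool 4) and 5 lower. Their shares were 9.68% and 8.06%, against 5.83% and 9.86% of all probe sets. Pde1c, the calmodulin-dependent phosphodiesterase of olfactory cilia, stood at 16.07, 15.70, 15.64 and 15.73 in GFP+ cells and at 15.18, 14.80, 14.67 and 14.71 in GFP- cells. The groups were apart by 0.94 ± 0.18 (1.92-fold, adjusted p = 0.000945). Pde2a, found in the guanylyl cyclase D neurons, was lower (-4.18 ± 0.34, adjusted p = 4.93e-08), with 1 of 4 GFP+ arrays above the floor and a 9.30-fold difference after the other 3 were raised to theirs. Of 63 G protein and RGS genes 3 were higher and 18 lower, beside a background of 9.86% lower (17 higher and 16 lower with centred arrays). They included Gng8, a gamma subunit of immature neurons, at least 7.19-fold lower, and Rgs2, at least 7.53-fold lower. Rgs2, Gnai2 and Pde2a were highest in the GFP- array of pool 4 (11.39, 13.28 and 10.24), as were the blood cell markers. Gng8 was lowest in that array (9.05). The part of blood cells in these differences was not tested.

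Among 37 calcium sensors and buffers 5 were higher (3 without pool 4) and 4 lower. The 5 include S100a5, the gene of the sorting reporter. These were 13.5% and 10.8%, against 5.83% and 9.86% of all probe sets. Calb2, the calcium buffer calretinin, separated the fractions widely, with values of 10.58, 10.10, 9.86 and 10.83 in GFP+ cells against 15.55, 15.60, 15.42 and 15.42 in GFP- cells. Both groups lay above the floor, and GFP+ cells were 35.6-fold lower (-5.15 ± 0.23, adjusted p = 4.69e-11). GFP- pool 4, the array with the most blood cell markers, had a Calb2 value of 15.42, at the lower end of the 4, and the part of blood cells in the Calb2 difference was not tested. S100a11, a relative of S100a5, was at least 96.8-fold lower and was highest in GFP- pool 4 at 14.33.

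Presynaptic genes leaned to GFP+ cells. Of 38 genes of transmitter release, 11 were higher (28.9%, against 5.83% of all probe sets) and 0 lower, with a median of 0.47. The count was 7 without pool 1, 8 without pool 2 and 6 without pool 3 or 4, and 16 and 15 were higher under a random and a fixed pool block. Syn2, a synapsin that tethers synaptic vesicles, stood at 14.14, 13.45, 13.47 and 13.39 in GFP+ cells and at 13.01, 12.47, 12.49 and 11.98 in GFP- cells, again without overlap (1.12 ± 0.23, 2.18-fold, adjusted p = 0.00179). Syngr1, a synaptic vesicle membrane protein, was 2.85-fold higher (1.51 ± 0.20, adjusted p = 1.92e-05). Syt4, a synaptotagmin without strong calcium binding, was 2.77-fold higher (1.47 ± 0.28, adjusted p = 0.000843). The priming factor gene Unc13a was higher (0.91 ± 0.24, adjusted p = 0.0116), but not without pool 3 (adjusted p = 0.101). The abundant vesicle genes Syp and Snap25 did not pass (0.22 ± 0.17 and 0.59 ± 0.26, adjusted p = 0.448 and 0.152).

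Of 41 neuropeptide, hormone and dense-core vesicle genes 5 were higher (12.2%, against 5.83% of all probe sets) and 2 lower. Without pool 4 the higher count was 3. Beside Ptprn, the granin gene Chgb was 2.08-fold higher (1.05 ± 0.19, adjusted p = 0.000550), whereas its relative Chga did not pass (0.13 ± 0.27, adjusted p = 0.810). Cadps2, which primes dense-core vesicles for release, was at least 2.21-fold lower. Pam, which amidates peptides, was lower as well (-3.79 ± 0.35, adjusted p = 2.06e-07), with 1 of 4 GFP+ arrays above the floor and an 11.3-fold difference after the others were raised to it.

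Among the adhesion lists, protocadherins had the largest share of members higher in GFP+ cells. Of 31 on the array 11 were higher (35.5%) and 0 lower, with a median of 0.66. The count was 4 without pool 4 and 8 to 11 without another pool. Pcdh8 stood at 11.26, 11.46, 11.75 and 11.01 in GFP+ cells and at 9.74, 9.72, 10.08 and 9.32 in GFP- cells, 1.66 ± 0.23 apart (3.16-fold, adjusted p = 2.69e-05). Pcdh7 stood at 12.09, 11.56, 11.63 and 11.19 against 10.52, 9.91, 10.28 and 9.88 (1.47 ± 0.23, 2.76-fold, adjusted p = 0.000150). In both genes every GFP+ array lay above every GFP- array. Pcdh10 passed with all pools (1.5 ± 0.50, adjusted p = 0.0491) and with none of the 4 pools left out (adjusted p = 0.0589 to 0.164); its highest values were those of pool 4, 10.06 in GFP+ and 8.57 in GFP- cells. Of the 11 members, 6 belong to the clustered Pcdhb genes, whose near-identical copies the probe sets may not separate.

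Classical cadherins had 3 of 35 genes higher (8.57%, against 5.83% of all probe sets) and 2 lower. There were 0 higher without pool 4, 1 lower without pool 2 or 3, and 5 or 6 higher under a random or fixed pool block. Cdh18 was 1.99-fold higher (0.99 ± 0.24, adjusted p = 0.00584; 0.0676 without pool 4). The epithelial cadherin gene Cdh1 was lower (-4.23 ± 0.27, adjusted p = 2.07e-09), with 1 of 4 GFP+ arrays above the floor and a 16.8-fold difference after the other 3 were raised to it. Of 54 leucine-rich repeat, neurexin, neuroligin and teneurin genes 4 were higher (7.41%, near the 5.83% of all probe sets) and 1 lower. They included the synaptic adhesion genes Lrfn3 (0.98 ± 0.22, adjusted p = 0.00340) and Nlgn3 (0.89 ± 0.19, adjusted p = 0.00249), both with all 4 GFP+ arrays above all GFP- arrays.

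Guidance genes had 8 of 66 members higher (12.1%) and 1 lower, with 5 higher without pool 4 and 6 to 8 without another pool. Sema6c, a transmembrane semaphorin, was 2.77-fold higher (1.47 ± 0.27, adjusted p = 0.000575). Sema3e, a secreted semaphorin, was 2.61-fold higher (1.38 ± 0.19, adjusted p = 3.30e-05). Both are ligands of plexins on other cells. The ephrin receptor genes Epha5 and Epha7 were higher as well (1.21 ± 0.22 and 1.10 ± 0.32, adjusted p = 0.000588 and 0.0253). Epha7 did not pass without pool 3 or 4 (adjusted p = 0.0601 and 0.0735) or in a fit of the vehicle arrays alone (adjusted p = 0.0798).

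Integrin and junction genes had more members lower than higher on the deposited scale. Of 29 integrin genes matched by symbol 9 were lower (31.0%, against 9.86% of all probe sets) and 1 higher. Itgb2, the beta subunit of leukocyte integrins, was at least 9.78-fold lower. Its GFP- values were 8.03, 10.08, 9.59 and 11.29, highest in pool 4 and lowest in pool 1 as in the neutrophil markers. Of 53 tight junction and desmosome genes 9 were lower (17.0%) and 1 higher. Only 1 of those 9 had every GFP- array above the floor, and 38 of the 53 genes lay under the floor on all 8 arrays. Of 44 immunoglobulin superfamily genes 6 were lower, a share of 13.6% near the background, and 2 higher (1 without pool 3 and 8 under a random pool block). With centred arrays the junction and immunoglobulin lists had more members higher than lower (18 and 7, and 21 and 1), as had the matrix genes (25 and 3), while the integrins did not (6 and 8). Alcam, a homophilic adhesion protein of growing axons, was 3.59-fold lower (-1.84 ± 0.28, adjusted p = 9.75e-05). Of 74 matrix genes 4 were lower (2 without pool 4) and 0 higher, and their 5.41% lies below the background share. Fn1 (fibronectin) was at least 39.9-fold lower, and its highest value was that of GFP- pool 4 at 13.38. Of 11 fibroblast and stroma markers 2 were lower and 0 higher, and 8 lay under the floor on all 8 arrays. The list's median was 0.20, with 7 differences above 0 and 4 below, so the 2 called genes do not stand for the list. Rgs5, a marker of vessel pericytes, stood at 6.93, 6.97, 6.97 and 6.80 in GFP+ cells and at 11.88, 11.40, 11.50 and 10.64 in GFP- cells. It was thus above the floor on every array and 21.7-fold lower in GFP+ cells (-4.44 ± 0.35, adjusted p = 3.30e-08), with its lowest GFP- value in pool 4. Dcn, the matrix proteoglycan decorin, lay just above the floor in GFP- cells and was at least 1.25-fold lower (-1.44 ± 0.22, adjusted p = 7.83e-05).

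**Figure D3:**
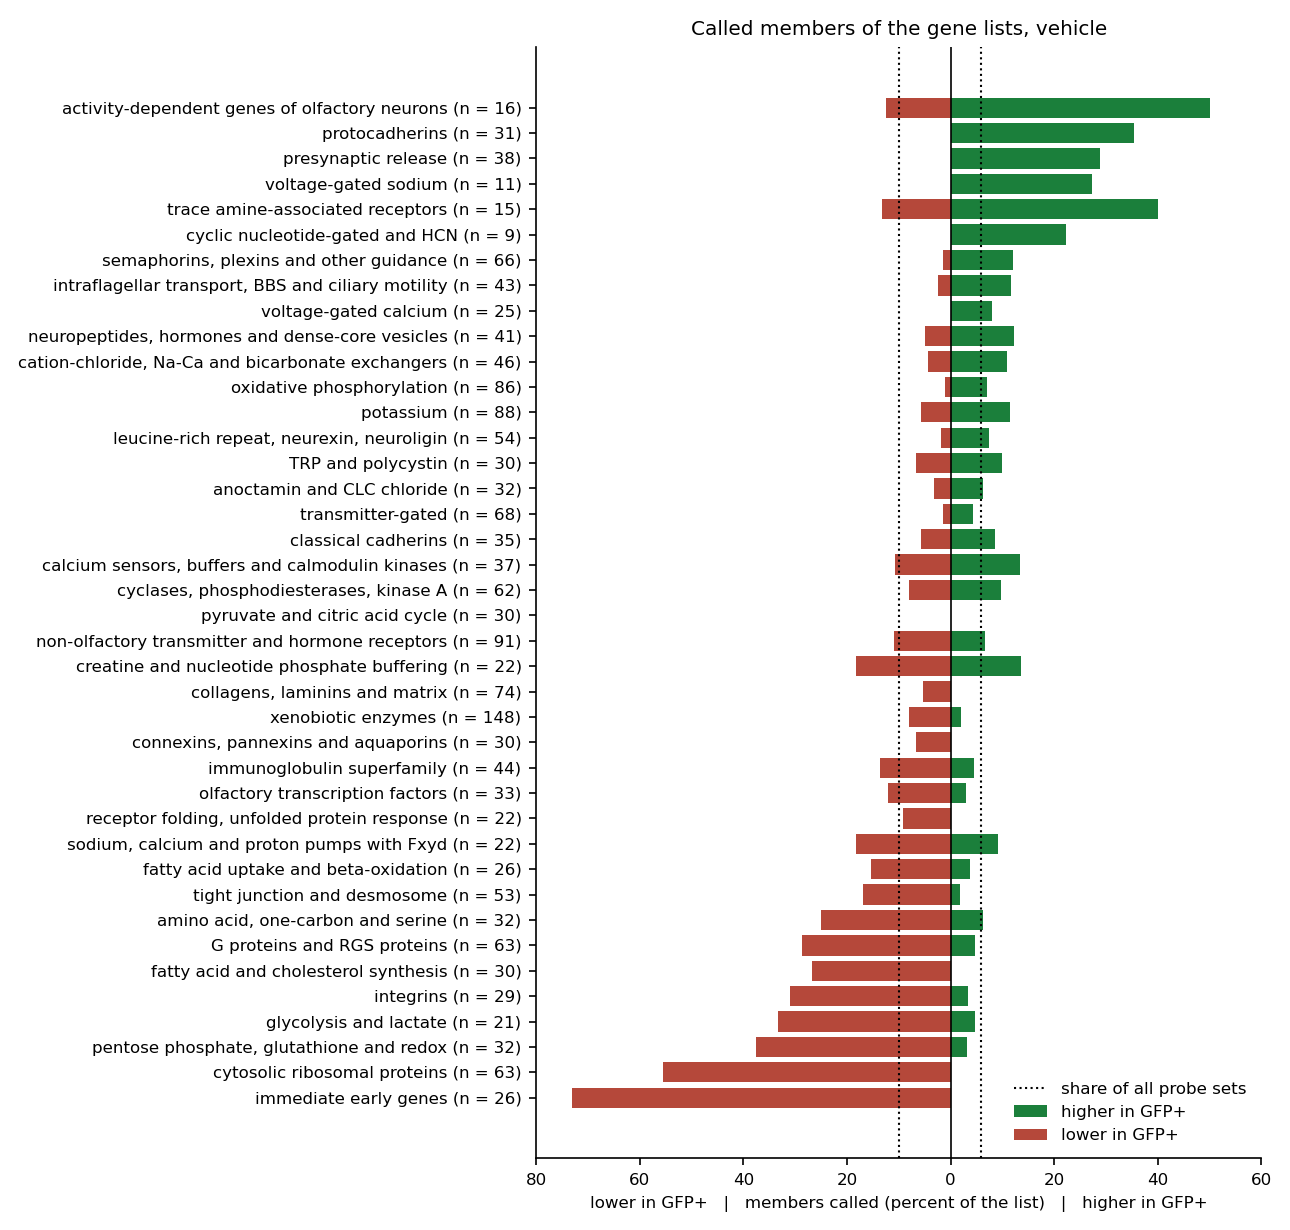
Percent of each gene list other than the cell type markers and the odorant receptors called higher (green, to the right) or lower (red, to the left) in vehicle GFP+ cells, with the number of genes on the array. Dotted lines mark the shares among all probe sets, 5.83% higher and 9.86% lower. Of the lists plotted, activity-dependent genes have the largest share higher, 8 of 16, and immediate early genes the largest share lower, 19 of 26.

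On the deposited scale, most metabolic genes that differed were lower in GFP+ cells, and few mitochondrial energy genes differed. With centred arrays more members were higher than lower among glycolysis (8 and 6), fatty acid synthesis (11 and 7), fatty acid oxidation (7 and 4), amino acid (8 and 6) and detoxifying enzyme genes (45 and 10). Of 30 pyruvate and citric acid cycle genes 0 were called by limma in either direction, 2 were higher under a random or fixed pool block, and none is named. Of 86 oxidative phosphorylation genes 6 were higher (6.98%, near the 5.83% of all probe sets) and 1 lower, with a median of 0.25. Without pools 1 to 4 in turn 3, 4, 1 and 2 were higher, and 10 were under a random pool block. Cyc1, cytochrome c1 of complex III, stood at 9.31, 9.54, 9.35 and 9.46 in GFP+ cells and at 8.81, 8.56, 8.86 and 8.49 in GFP- cells (0.74 ± 0.17, 1.67-fold, adjusted p = 0.00463). The complex V gene Atp5b did not pass (0.19 ± 0.14, adjusted p = 0.392). Ppargc1a, a coactivator of mitochondrial genes, was 2.01-fold higher (1.01 ± 0.18, adjusted p = 0.000418).

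Of 22 creatine and nucleotide phosphate genes 3 were higher, namely the creatine carrier Slc6a8 and the creatine kinases Ckb and Ckmt1, and 4 were lower. Without pool 2 or 4 the higher count was 1. Slc6a8 stood at 14.62, 14.35, 14.63 and 14.30 in GFP+ cells and at 13.67, 13.71, 13.70 and 13.15 in GFP- cells, without overlap (0.92 ± 0.17, 1.89-fold, adjusted p = 0.000769). Ckb differed by 0.65 ± 0.21 (adjusted p = 0.0379) and Ckmt1 by 0.55 ± 0.17 (adjusted p = 0.0331). Each kinase lost its call without 3 of the 4 pools, Ckb without pool 2, 3 or 4 (adjusted p = 0.05 to 0.172) and Ckmt1 without pool 1, 2 or 4 (adjusted p = 0.0755 to 0.135). Both calls were also lost in a fit of the vehicle arrays alone (adjusted p = 0.0851 for Ckb and 0.0867 for Ckmt1).

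Glycolysis and lactate genes had 7 of 21 members lower and 1 higher. Ldha, lactate dehydrogenase A, was 11.4-fold lower (-3.51 ± 0.33, adjusted p = 2.28e-07), and Pgk1 1.96-fold lower (-0.97 ± 0.23, adjusted p = 0.00518), while Gapdh did not pass (0.02 ± 0.22, adjusted p = 0.965). The glucose transporter gene Slc2a3 was at least 4.49-fold lower. Of 30 fatty acid and cholesterol synthesis genes 8 were lower and 0 higher, for example Elovl5 (5.55-fold, -2.47 ± 0.22) and Fads2 (at least 2.29-fold). Of 26 fatty acid oxidation genes 4 were lower and 1 higher, with Cpt1a, the gate to mitochondrial oxidation, at least 2.77-fold lower. Of 32 amino acid and polyamine genes 8 were lower (5 without pool 4) and 2 higher (0 without pool 1, 2 or 4). Every array of the brighter group lay above the floor for 2 of the 8 and 0 of the 2. The polyamine enzymes Sat1 and Odc1 were 21.6-fold and 2.01-fold lower (adjusted p = 3.84e-08 and 0.00322).

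Among 32 pentose phosphate, glutathione and redox genes 12 were lower and 1 higher. Gpx1, a glutathione peroxidase, stood at 9.81, 9.60, 10.02 and 10.19 in GFP+ cells and at 13.65, 14.54, 14.54 and 16.19 in GFP- cells. The groups were far apart (28.3-fold lower in GFP+ cells, -4.82 ± 0.37, adjusted p = 2.37e-08), and GFP- pool 4 was again the highest. The abundant quinone reductase gene Nqo1 did not pass (0.09 ± 0.24, adjusted p = 0.859). The list's median was -0.26 on the deposited scale and 0.10 with centred arrays, and 7 members were lower without pool 2 or 4. Of 148 detoxifying enzymes 12 were lower, a share of 8.11% that is below the background, and 3 higher (6 without pool 2, 0 without pool 3, 7 and 5 under a random and fixed pool block). Aldh2 was 31.7-fold lower (-4.99 ± 0.31, adjusted p = 1.31e-09), and the olfactory cytochrome Cyp2a5, which a close copy could share, 4.70-fold lower (-2.23 ± 0.32, adjusted p = 4.67e-05). The blood cell markers were lower in GFP+ cells too. For Gpx1, Ldha, Pgk1, Slc2a3, Elovl5, Cpt1a, Sat1 and Aldh2 the highest GFP- value was that of pool 4, as for those markers. For Fads2 and Cyp2a5 pool 4 gave the lowest GFP- value (7.27 and 13.32), and for Odc1 pool 1 gave the highest (10.19). The part of blood cells in these differences was not tested.

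Many cytosolic ribosomal protein genes were lower in GFP+ cells on the deposited scale. Of 63 on the array 35 were lower (55.6%) and 0 higher, with a median of -0.74 (-0.38 with centred arrays, when 20 were lower and 1 higher). Rplp0 stood at 9.07, 8.95, 8.90 and 8.78 in GFP+ cells and at 10.18, 11.05, 10.42 and 11.80 in GFP- cells (3.82-fold lower, -1.93 ± 0.31, adjusted p = 0.000153). Rps16 was 3.04-fold lower (-1.60 ± 0.25, adjusted p = 0.000132). Rpl21, among the brightest of the list, missed the threshold (-0.47 ± 0.16, adjusted p = 0.0557) and passed under a random pool block (adjusted p = 0.0294). The count was 15 without pool 4, 24 without pool 2 and 27 without pool 3. In GFP- cells Rplp0 and Rps16 were lowest in pool 1 and highest in pool 4 (11.80 and 12.45), as were the neutrophil markers. Rpl21 was highest in pool 1 (16.3). The part of blood cells in these differences was not tested.

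Immediate early genes, which are transcribed within minutes of a stimulus, were lower in the cells sorted for the activity reporter. Of 26 in the list 19 were lower (73.1%) and 0 higher, with a median of -2.19, and 18 or 19 were lower without any 1 pool. Egr1 stood at 8.91, 8.67, 8.56 and 9.53 in GFP+ cells and at 13.49, 14.26, 13.75 and 13.94 in GFP- cells. The groups did not overlap, and GFP+ cells were 30.8-fold lower (-4.94 ± 0.31, adjusted p = 1.56e-09). The GFP- value of Egr1 in pool 4 lay between those of pools 3 and 2. Egr1 is a single member, and others differed more, down to -6.59. The list's mean level ran from 9.71 to 10.58 over the GFP- arrays. Several of these genes are also expressed in blood cells, and the part of those cells was not tested.

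Activity-dependent genes of olfactory neurons, a list that holds S100a5 itself, had 8 of 16 members higher and 2 lower, with a median of 0.66. The 8 included S100a5, Pcp4l1, Lrrc3b and Pcdh10, and Calb2 was 1 of the 2 lower. Without pools 1 to 4 in turn 4, 5, 6 and 5 were higher, and 1 was lower without pool 1. Of 33 transcription factors and regulators of receptor choice Rfx4 was the single one higher, and 4 were lower (18 and 4 with centred arrays). Nhlh1, a factor of newly formed neurons, was at least 10.6-fold lower, and the lamin B receptor gene Lbr 4.16-fold lower (-2.06 ± 0.30, adjusted p = 4.71e-05). In GFP- cells Lbr was lowest in pool 1 and highest in pool 4 at 13.05, as were the neutrophil markers. The part of blood cells in the Lbr difference was not tested. Ebf1, a factor of olfactory neurons and of B cells, did not pass (0.36 ± 0.15, adjusted p = 0.122). Of 22 receptor folding and unfolded protein response genes 2 were lower and 0 higher (2 and 6 with centred arrays), including Edem1 (2.43-fold, -1.28 ± 0.25, adjusted p = 0.00121). Of 43 ciliary genes 5 were higher (11.6%, against 5.83% of all probe sets) and 1 lower. There were 2 higher without pool 2 or 3, 1 without pool 4 and 10 under a random pool block. The intraflagellar transport gene Ift80 was 1.60-fold higher (0.68 ± 0.17, adjusted p = 0.00901), but not without pool 3 or 4 (adjusted p = 0.0675 and 0.0723).

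Mature neuron markers were abundant in both fractions, whereas many markers of immature neurons, progenitors, sustentacular, microvillous and blood cells were lower in GFP+ cells. Of 19 mature neuron markers 7 were higher in GFP+ cells and 0 lower (4 without pool 2 or 4, 16 with centred arrays). S100a5, the gene of the sorting reporter, is 1 of these 7, and without it 6 of 18 were higher. The list's median was 0.42. Their mean level was 15.70 to 16.25 in GFP+ and 15.15 to 15.70 in GFP- arrays. Cidea, a lipid droplet protein that marks mature olfactory neurons, was 2.63-fold higher (1.39 ± 0.23, adjusted p = 0.000208). Of 19 immature neuron markers 9 were lower and 0 higher, and their mean level was at most 9.88 in GFP+ arrays and 11.06 or more in GFP- arrays of pools 1 to 3, with pool 4 just under these. Cxcr4, a chemokine receptor of progenitors and early neurons that blood cells also carry, was at least 20.9-fold lower. Of 11 markers of globose basal and intermediate progenitors 9 were lower. Their mean level in GFP- pools 1 to 4 was 7.07, 7.48, 7.33 and 8.19. It was lowest in pool 1 and highest in pool 4, as for the neutrophil markers. The part of blood cells in the progenitor list was not tested. Mki67, a marker of dividing cells of any kind, was at least 41.7-fold lower and highest in GFP- pool 4 at 13.34, and Kit was at least 2.45-fold lower.

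Sustentacular markers had 8 of 14 lower and 0 higher, with mean levels of 6.55 to 6.97 in GFP+ and 7.84 to 8.38 in GFP- arrays. Cyp2g1, an olfactory cytochrome of these cells, stood at 13.31, 13.76, 13.07 and 11.76 in GFP+ cells and at 15.62, 15.13, 15.41 and 14.27 in GFP- cells (4.39-fold lower, -2.13 ± 0.37, adjusted p = 0.000324). It was thus measured well above the floor in both fractions, and lowest in pool 4 in both. The keratin gene Krt18 was at least 6.70-fold lower. Of 15 microvillous, tuft-like and ionocyte markers 14 were lower, with Hepacam2 at least 25.3-fold lower (-5.76 ± 0.27, adjusted p = 5.22e-11). Their mean level was 5.4 to 5.65 in GFP+ and 8.14 to 8.30 in GFP- arrays, and GFP- pool 4 was the lowest of the 4. Of 11 markers of non-canonical olfactory neurons 5 were lower, some of which blood cells share. That list's median was -0.01, with 5 differences above 0 and 6 below. Horizontal basal cell, ensheathing glia, endothelial and gland markers lay under the floor in both fractions for 9 of 10, 9 of 10, 11 of 11 and 12 of 16 genes.

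Blood cell transcripts showed the largest differences of the comparison. All 15 neutrophil markers were lower in GFP+ cells, with mean levels of 4.53 to 5.44 in GFP+ and 10.92 to 13.73 in GFP- arrays, and 13 of the 15 lay under the floor on every GFP+ array. Retnlg, a resistin-like protein of neutrophils, stood at 4.6, 4.62, 4.51 and 5.70 in GFP+ cells and at 14.31, 15.40, 15.44 and 16.96 in GFP- cells. No GFP+ array reached its floor, and the transcript was at least 538-fold lower (-10.67 ± 0.40, adjusted p = 4.82e-12). Of 18 monocyte, macrophage and dendritic cell markers 16 were lower (4.19 to 4.71 against 7.82 to 8.97), and Spi1, their lineage factor, was at least 243-fold lower. Of 11 B cell markers 8 were lower (4.98 to 5.27 against 7.14 to 8.36), with the B cell receptor gene Cd79a at least 16.9-fold lower. The lists of T and NK cells (6 of 13), mast cells and basophils (4 of 10) and erythroid cells (5 of 6) were also lower in part. Ly6e, by contrast, was measured in both fractions, at 7.54 to 8.58 in GFP+ and 15.70 to 17.27 in GFP- arrays, and was 438-fold lower (-8.78 ± 0.32, adjusted p = 3.48e-12).

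**Figure D4:**
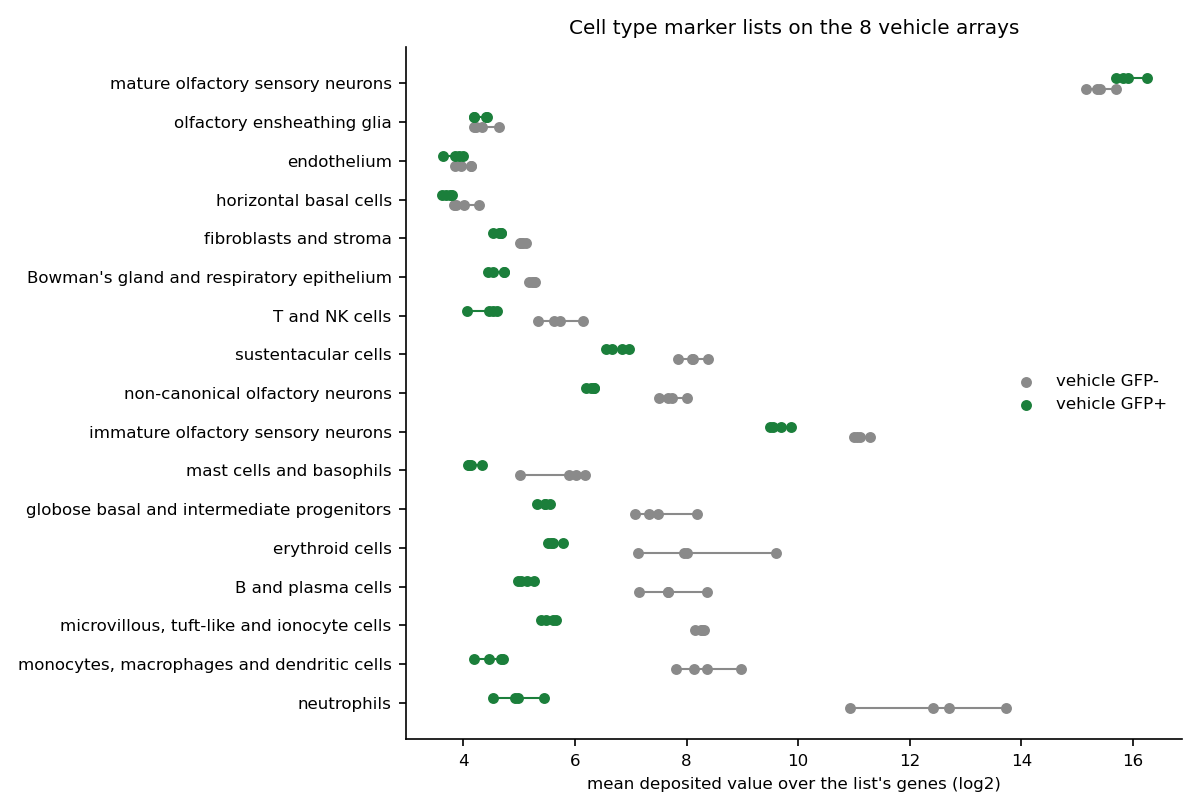
Mean deposited log2 value over each cell type marker list on the 4 GFP- (grey) and 4 GFP+ (green) vehicle arrays, with a line from the lowest to the highest array. Neutrophil markers lie at 4.53 to 5.44 in GFP+ and 10.92 to 13.73 in GFP- arrays, and mature neuron markers are the highest of all lists in both fractions.

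The same sort in the odor pools, made from other mice, gave a count of 1175 probe sets higher (5.29%) and 2124 lower (9.56%). Outside the receptors 283 genes were higher in both treatments, 35.7% of the vehicle list and 40.8% of the odor list, and 1467 were lower in both, 84.4% and 86.8% of the lists. Of the 793 genes higher in vehicle 750 had the same sign in odor, as had 1730 of the 1738 lower, and 0 were called in the opposite direction. Fxyd2 differed by 3.49, Ptprn by 2.28, Pcp4l1 by 2.23, Rfx4 by 1.68 and Slc8a1 by 1.48 in odor, each past the threshold. Cyc1 and Unc13a, called in vehicle, were at 0.26 and 0.32 in odor and did not pass (adjusted p = 0.356 and 0.427). The change of the sort difference with odor was itself tested: by limma 0 genes outside the receptors and 2 probe sets in all were called, and 650 had an unadjusted p below 0.05, so that no gene named here was shown to differ between treatments.

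**Figure D5:**
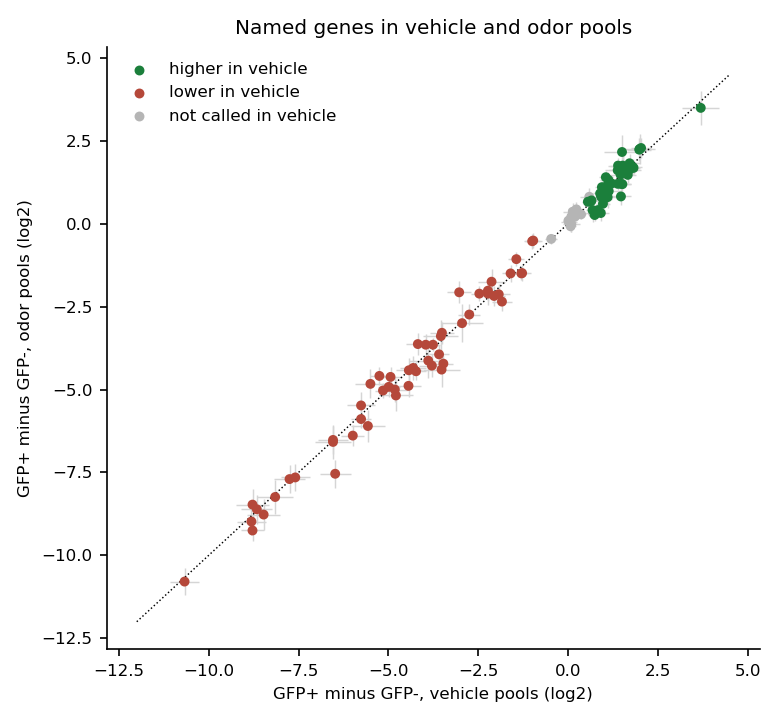
GFP+ minus GFP- differences of the named genes in the vehicle pools (horizontal) and in the odor pools (vertical), as log2 differences with SE, with a dotted line of equality. Points from Retnlg at -10.67 to Fxyd2 at 3.69 lie near the line.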

How the data were processed

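Per the labels, biotinylated cRNA of the sorted cells was hybridised to Clariom S mouse arrays, 1 array per fraction and pool. The authors deposited log2 values per probe set. The submitters' processing notes name Affymetrix Expression Console. Neither its version nor the summarisation method nor the array's genome build is stated in the sources used here. Of 28846 rows 6640 were controls. Of the 22206 tested, 19572 had 1 gene symbol in GEO's platform annotation and 2634 had none. All 19572 matched RefSeq (GRCm38.p6) by Entrez identifier. Of 19505 genes 55 had several probe sets and were represented by the brightest.

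Groups and pool numbers came from the titles. Differences were tested with limma 3.58.1 (R 4.3.3; lmFit, eBayes) on 4 group means over all 16 arrays with 12 residual degrees of freedom, Benjamini-Hochberg over 22206 probe sets and a threshold of 0.05. The script was tested on simulated data. "At least" folds set the brighter mean against the dimmer group's values raised to the background floor. Same-numbered fractions share their mice by the labels, and as a check of that pairing the residuals of each pair were correlated, at 0.352, 0.0136, 0.0516 and 0.0837 in vehicle pools 1 to 4 and at 0.425, 0.0749, 0.161 and 0.109 in odor (consensus 0.171). Alternatives were a random or fixed pool block, quantile normalization, median centring, a filter that removed the dimmest 20% or 40% of probe sets, a trended robust prior, array weights, the vehicle arrays alone, 1-symbol probe sets alone, and each pool left out.

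The genes named are S100a5, Omp, the 15 highest and 15 lowest genes outside olfactory receptors that were measured above the floor and differed alike in all 4 pools, and per list up to 4 called members of largest difference and 2 uncalled members. Not all of them appear in the text. The 58 gene lists and the comparison itself were chosen with earlier results of these data known. Plots used Python 3.11.15 and matplotlib 3.10.9.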

Additional observations from a re-analysis of the deposited data

Results flagged for a closer look

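In 9 of the 254 groups of 4 arrays examined, 1 array lay far from the other 3 of its group, past Dixon's critical value for the gap over the range. Chance flags about 1 in 20 such groups. In GFP+ cells these were Omp in pool 3 at 19.19, Retnlg in pool 4 at 5.70, Gng8 in pool 4 at 3.49, Syn2 in pool 1 at 14.14 and Fn1 in pool 2 at 3.10. In GFP- cells they were Etv5 in pool 4 at 10.21, Cnga4 in pool 1 at 17.23, Ano2 in pool 1 at 17.44 and Slc6a8 in pool 4 at 13.15. The values of Retnlg, Gng8 and Fn1 lie under the background floor. The low Etv5 value in GFP- pool 4 belongs to a gene that did not pass once any pool was left out.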

How the results depend on the processing

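Of 110 named genes 97 were called, and 87 kept direction and call under all 14 alternatives. Of the others 13 lost a call under at least 1 alternative and 10 gained one (Omp also changed sign), most when pool 4 was left out (10 lost) or arrays were centred (9 gained). The count of probe sets higher in GFP+ cells was 1972 with quantile normalization, 8986 with centred arrays, 948 with the vehicle arrays alone and 741 to 1112 without 1 pool. The Omp difference was 0.37 with centred arrays (limma, adjusted p = 0.0418) and -0.04 to 0.06 without 1 pool, with a negative sign without pool 2 (-0.01) or pool 4 (-0.04). The pairing of fractions by pool moved these totals by less than 1.5 times: under a random replicate block 1864 were higher and 2411 lower, and under a fixed one 1589 and 2301. It gave Scn3b and Rpl21 their calls and changed no other call of a named gene. It moved 18 (random) and 17 (fixed) of 116 list counts by over 1.5 times. Centring moved 58 of them and leaving out pool 4 moved 37, so counts of small differences higher in GFP+ cells depend on both. The causes were not tested. Signal over background limits the rest: 230 of 793 higher and 380 of 1738 lower genes outside the receptors lay under the floor on all 8 arrays.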

Other observations

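Further blood cell genes outside those described above were among the 15 lowest in GFP+ cells, and all 4 GFP+ arrays lay under the floor for each of 4 of them. These were Anxa1, an annexin of myeloid cells (at least 112-fold lower), Cd37, a leukocyte tetraspanin (at least 85.6-fold), Mmp8, the neutrophil collagenase (at least 62.7-fold), and Ctse, an intracellular aspartic protease (at least 60.6-fold). Their GFP- values were highest in pool 4 and lowest in pool 1, as for the neutrophil markers. Basophil and mast cell genes were present in GFP- cells too: Hdc, which makes histamine, stood at 9.31, 10.36, 10.61 and 12.21 in GFP- pools 1 to 4 and was at least 17.9-fold lower in GFP+ cells, and the basophil protease gene Prss34 was at least 7.26-fold lower. Il7r, a lymphocyte cytokine receptor, was at least 5.69-fold lower, and Alas2, the heme synthesis enzyme of red cells, at least 4.84-fold lower.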
